A study of Mus musculus with 2 samples.

Results

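Teneurins, latrophilins and FLRT proteins form a network of cell-surface partners, and the 10 mouse genes that encode them were followed through RNA sequencing of the adult cerebellum. The genes were Tenm1, Tenm2, Tenm3 and Tenm4 (teneurins), Adgrl1, Adgrl2 and Adgrl3 (latrophilins), and Flrt1, Flrt2 and Flrt3. They were chosen by name and matched by Ensembl gene identifier, and all 10 were found among 43346 measured genes. The study holds 2 libraries of polyadenylated RNA longer than 200 nucleotides from the cerebellum of C57BL/6J mice aged 8 weeks, a standard inbred strain with no transgene or treatment named. They form a single group, so the data hold no contrast between conditions and no p-value was computed. Replicate 1 held 83109117 and replicate 2 held 84279927 estimated fragments, of which the 10 genes took 0.0946% and 0.0913% of those assigned to genes.

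Teneurins are large transmembrane proteins whose extracellular part carries EGF-like repeats and a large globular domain, and they bind latrophilins on the neighbouring cell. Latrophilins are adhesion G protein-coupled receptors, and Adgrl1 is known as a receptor of the spider toxin alpha-latrotoxin. FLRT proteins are transmembrane proteins with leucine-rich repeats that bind both latrophilins and the netrin receptors of the UNC5 family. In the brain these contacts guide axons and help to specify synapses, and alternative exons of teneurins and latrophilins alter which partners are bound.

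Both libraries are labelled as pooled tissue of both sexes from mixed-sex litters and share one donor record, so nothing given shows that they came from separate animals. The data went against that label. Replicate 1 had 45928 counts of Xist, the RNA of the inactive X chromosome, and 0 of 4 Y-linked genes. Replicate 2 had 26 counts of Xist and between 1328 and 3776 of Uty, Kdm5d, Ddx3y and Eif2s3y. Sex thus cannot be told apart from replicate for any of the 10 genes, of which Tenm1 is the one on the X chromosome. All 5 granule neuron and all 5 Purkinje neuron markers were detected in both libraries, with medians of 175.5 and 243.5 TPM (a relative abundance corrected for transcript length). Each was higher in replicate 1, by log2 ratios of 0.03 to 0.32 for granule and 0.099 to 0.25 for Purkinje neuron markers. The choroid plexus markers Ttr, Folr1 and Kcnj13 were higher in replicate 1 by 1.39, 1.19 and 1.69 on the log2 scale, and the oligodendrocyte markers Mbp, Mobp, Mog and Mag were at 0.796 to 0.848 of their replicate 2 level there. The part of these shifts in the values below was not tested. In bulk tissue, fewer cells of a type and less RNA per cell cannot be told apart.

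All 10 genes reached 1 TPM in both libraries, as did 60.9% of 21474 protein-coding genes. Their median was 7.63 TPM, against 18.4 TPM for the protein-coding genes detected in both libraries. Adgrl1 was the highest at 112 ± 11.1 TPM (SD, n = 2, as for every mean below), above 94.8% of protein-coding genes. Adgrl3 at 37.0 ± 0.233 TPM and Tenm1 at 33.2 ± 5.33 TPM followed, then Adgrl2 at 15.6 ± 0.0354 TPM and Flrt3 at 8.01 ± 0.792 TPM. Tenm4, Tenm2, Tenm3, Flrt1 and Flrt2 lay between 3.17 and 7.25 TPM. Of the 9 pairs of neighbours in this order, Adgrl3 and Tenm1 were the pair whose values over the libraries overlapped. The gap between Flrt3 and Tenm4 was only 0.0600 TPM and that between Flrt1 and Flrt2 0.0700 TPM.

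**Figure D1:**
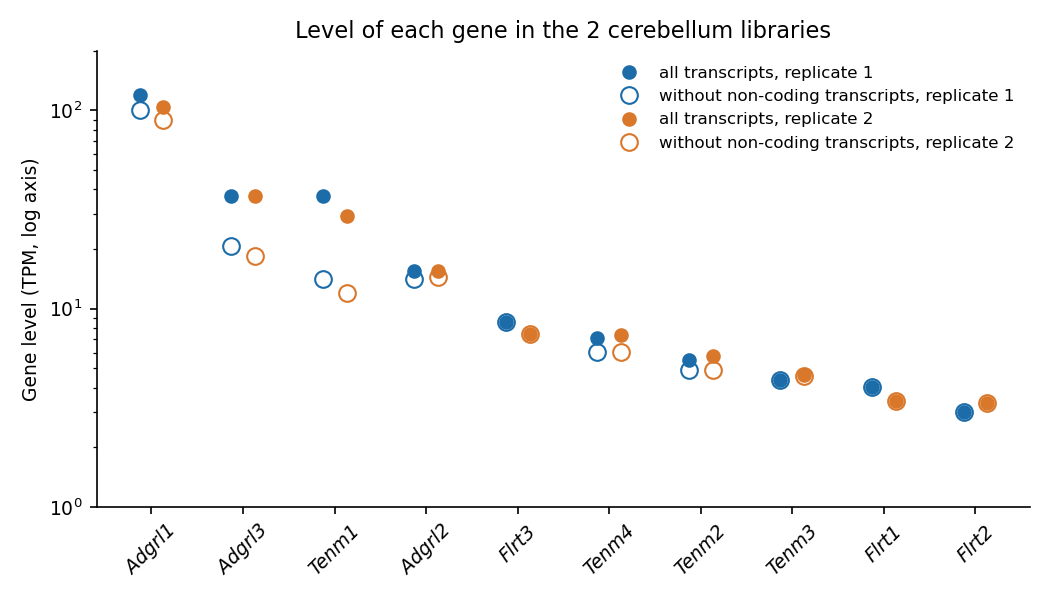
Level of each gene in TPM on a log axis, in replicate 1 (blue) and replicate 2 (orange). Filled points hold all transcripts of a gene and open circles leave out transcripts annotated as non-coding. Adgrl1 lies above 100 TPM in both libraries, and the open circles of Tenm1 fall to 14.1 and 12.03 TPM, below those of Adgrl2 at 14.2 and 14.4.

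Among the teneurins, Tenm1 (ENSMUSG00000016150.11, mm10 chrX:42527866-43429126, minus strand) held 68.5% of the family's TPM in replicate 1 and 62.3% in replicate 2. Its level was 36.95 TPM in replicate 1 and 29.4 TPM in replicate 2, from 10729 and 9624 fragments. More than 50% of that level was assigned to 1 short transcript. Tenm1-204, which is annotated as a processed transcript without a coding frame and has 3 exons, took 58.8% and 55.6% of the gene's TPM but only 1088 and 863 fragments. The coding transcript Tenm1-203 held 7537 and 6724 fragments and 30.4% and 32.2% of the TPM. Without transcripts annotated as non-coding, Tenm1 stood at 14.1 and 12.03 TPM. Of 10015 genes with several transcripts and at least 1 TPM, 10.2% had 50% or more of their TPM in non-coding transcripts in both libraries, and of the 9 genes here with several transcripts Tenm1 was the 1 such gene.

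The junction reads show how the exons of Tenm1-204 were joined. These reads come from a separate table on the mm9 assembly, whose replicate numbers 1 and 2 name no library. The junction from exon 1 to exon 2 of Tenm1-204 had 80 and 65 reads, but the annotated junction from exon 2 to its last exon had 0 and 2. Instead, 69 of 80 and 56 of 64 reads leaving exon 2 crossed an unannotated intron of 135914 bases. They landed 2 bases inside the 32-nt first exon of the coding transcript Tenm1-201, and 49 and 47 reads then led from that exon to the second exon. Most reads leaving exon 2 of the short transcript thus ended at the first exon of a coding one.

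**Figure D2:**
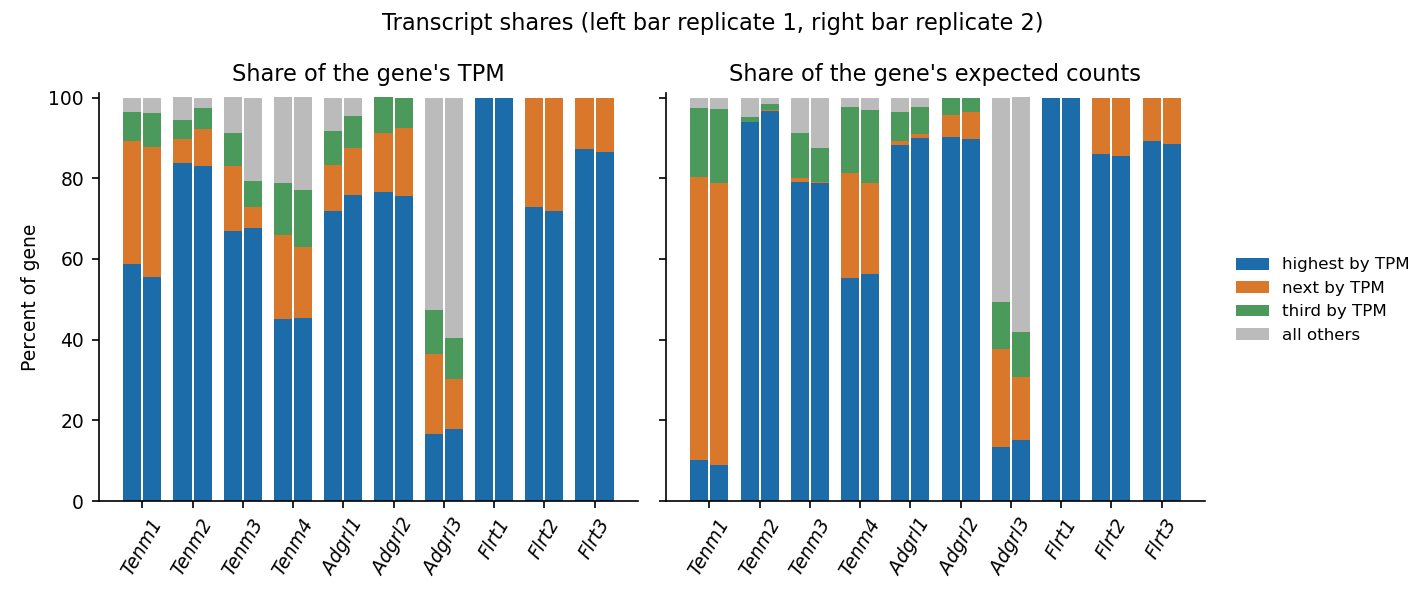
Share of each gene held by its transcripts, in percent of TPM (left panel) and of expected counts (right panel). Each gene has a bar for replicate 1 and one for replicate 2, split into the 3 transcripts highest by TPM and all others. The transcript that led Tenm1 by TPM held 10.1% and 8.97% of its counts.

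The other teneurins were each at a fraction of the level of Tenm1. Tenm4 (mm10 chr7:96171246-96911093) had 7.11 TPM in replicate 1 and 7.39 TPM in replicate 2. Tenm2 (mm10 chr11:36006656-37235964) had 5.51 and 5.78 TPM, and Tenm3 (mm10 chr8:48227682-48843951) had 4.38 and 4.62 TPM. All 3 were a little higher in replicate 2, where Tenm1 was lower. Tenm2-202 held 83.8% and 83.1% of Tenm2, and 1 transcript that GENCODE M21 no longer lists held 66.9% and 67.8% of Tenm3. Tenm4 was more divided, with 45.1% and 45.4% assigned to Tenm4-203 and 20.8% and 17.7% to Tenm4-202. Both of these Tenm4 transcripts hold a 27-nt exon, described below, that junction reads included at 27.5% and 40.0%. The first intron of Tenm4-203, of 144585 bases, had 0 and 0 junction reads. The leading Tenm3 transcript leaves out the 27-nt exon of Tenm3, also described below. The intron by which it skips that exon, of 24819 bases, had 0 and 1 reads. Junction reads included the exon at 100% and 90.5%, from only 9.5 and 10.5 reads. At this exon the few junction reads thus disagree with the transcript assigned most of Tenm3.

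Teneurin genes carry very short coding exons, and inserts at these places are known to alter adhesion between teneurins and their partners. All 4 genes hold a 21-nt exon, shown here 5′ to 3′ from the GENCODE M21 transcripts with capitals where the 4 genes do not share a base. It lies at mm10 chrX:42648394-42648414 in Tenm1 and chr11:36054926-36054946 in Tenm2. In Tenm3 it lies at chr8:48287133-48287153, and in Tenm4 at chr7:96854717-96854737.
Tenm1: aaaCaGagaTACCaGacatag
Tenm2: aaaTaAagaGTTTaAacatag
Tenm3: aaaTaAagaTTTTaGacatag
Tenm4: aaaTaAagaTTTCaGacatag
The 4 exons shared 14 of 21 positions, and the Tenm3 and Tenm4 exons 20 of 21. Inclusion was measured as percent spliced in, the mean of the reads entering and leaving an exon as a share of those plus the reads that skip it. The 21-nt exon was read in 100% and 94.5% of Tenm1 (95% Wilson intervals 88.7 to 100 and 82.1 to 98.5, which cover counting error only, as do all intervals here). It was included at 93.1% and 88.2% in Tenm2, 100% in both replicates of Tenm3, and 85.2% in both of Tenm4. These last 3 genes had only 10 to 25.5 reads a replicate at the exon, so their intervals overlap and no order among the 4 genes was detectable.

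A second short exon differed in use between teneurins. Tenm3 and Tenm4 hold a 27-nt exon, at mm10 chr8:48313238-48313264 and chr7:96805105-96805131, with capitals where they differ.
Tenm3: ctcactatTtggataAgAtagttaaag
Tenm4: ctcactatCtggataGgGtagttaaag
Tenm1 has a 24-nt exon at mm10 chrX:42727337-42727360 whose first 7 bases, in capitals, are the same as in both.
Tenm1: CTCACTActtagatgctgttcgag
The 27-nt exons were identical at 24 of 27 positions. In Tenm4 the exon was included at 27.5% (15.5 to 44.1) and 40.0% (23.4 to 59.3), with 25 and 15 skipping reads. In Tenm3 it was included at 100% (71.2 to 100) and 90.5% (61.0 to 98.3), from 9.5 and 10.5 reads. The Tenm3 and Tenm4 intervals did not overlap in either replicate, although Tenm3 was under the 20 reads required for a call. The Tenm1 exon was included at 100% in both replicates, with no skipping read against 107 and 75.5 inclusion reads. Tenm4 had 1 further alternative exon, of 210 nt, included at 41.4% (25.5 to 59.3) and 39.7% (24.6 to 57.0).

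The FLRT genes were low. Flrt3 (ENSMUSG00000051379.8, mm10 chr2:140650914-140671469, minus strand) had 8.57 TPM in replicate 1 and 7.45 TPM in replicate 2, which was 54.9% and 52.5% of the family. Flrt1 (mm10 chr19:7092001-7105729) had 4.05 and 3.41 TPM, and Flrt2 (mm10 chr12:95692226-95785215) had 3.00 and 3.34 TPM. Flrt3 and Flrt1 were higher in replicate 1 and Flrt2 in replicate 2. Flrt1 lies on the opposite strand inside Macrod1, at 21.5 ± 0.474 TPM, and Flrt3 inside Macrod2, at 13.4 ± 0.672 TPM; the libraries are labelled as strand-specific. Among junctions lying wholly within a gene, no opposite-strand read fell within Flrt1 or Flrt2, and 1 fell within Flrt3 beside 222 on annotated junctions. Host junctions that span Flrt1 or Flrt3 were not counted, so these numbers cannot show whether host reads were assigned to them. Flrt2 had 2 transcripts in use, Flrt2-201 with 73.0% and 72.0% and Flrt2-202 with 27.1% and 28.0%. Its leading transcript crosses an intron of 85891 bases, which only 2 and 3 reads spanned. The single intron of Flrt1 had 37 and 23 reads, and Flrt3 had medians of 62.5 and 44.0 reads over 2 introns. FLRT proteins are encoded in a single large exon, and their introns lie outside it.

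Among the receptors, Adgrl1 (ENSMUSG00000013033.12, mm10 chr8:83900105-83941954, plus strand) had 120 TPM in replicate 1 and 104.5 TPM in replicate 2, from 41411 and 39355 fragments. It held 69.6% and 66.4% of latrophilin TPM. Adgrl3 (ENSMUSG00000037605.12, mm10 chr5:81020138-81825133) had 36.9 and 37.2 TPM, and Adgrl2 (ENSMUSG00000028184.8, mm10 chr3:148815583-148990555, minus strand) had 15.5 and 15.6 TPM. The 3 receptors did not overlap in level. Adgrl1-207 held 72.0% and 75.9% of Adgrl1, and Adgrl2-202 was assigned 76.7% and 75.6% of Adgrl2. These shares are estimates over the annotated transcripts, and for Adgrl2-202 the junction reads disagree. It holds a 27-nt exon, described below, that was included at only 15.3% and 18.8% in Adgrl2. Of 32 annotated Adgrl3 transcripts, 6 had no fragment in either library, 6 held 5% or more in both, and none reached 20%. Its highest was a coding transcript in replicate 1, at 19.8%, and a non-coding one in replicate 2, at 17.9%. Without non-coding transcripts Adgrl3 stood at 20.8 and 18.4 TPM, and Adgrl1 at 100.4 and 89.4 TPM. The leading transcript was the same in both libraries in 8 of the 9 genes with several transcripts (Flrt1 has 1), and in 93.4% of all such genes. A second transcript reached 20% in both libraries in 2 of 9, Tenm1 and Flrt2, against 38.4% of those genes.

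A short exon near the 5′ end of the latrophilin genes lies between the parts that encode the lectin-like and the olfactomedin-like domain, and in Adgrl1 and Adgrl3 it is known to alter binding to teneurins. It is shown because its reads were the least simple of all. It has 15 nt in Adgrl1 (mm10 chr8:83926262-83926276), 12 nt in Adgrl2 (chr3:148860427-148860438) and 15 nt in Adgrl3 (chr5:81509724-81509738), and precedes an exon of 801 nt in each gene. Capitals mark the bases not shared by all 3 over the last 12 positions.
Adgrl1: aagtggaGcaGaaag
Adgrl2: tggaGcaAaaag
Adgrl3: aagtggaAcaAaaag
The 3 sequences shared 10 of 12 positions. In Adgrl1 the exon was included at 23.1% (18.2 to 29.0) and 14.1% (10.3 to 19.1), with 177 and 204 reads over the skipping junction of the coding exons on either side. A further 24 and 9 reads entered 3 bases before its annotated start and were not counted. In Adgrl3 the exon had 8 and 10 reads in and 3 and 3 out, and 15 and 7 skipping reads. A single unannotated junction, whose spliced product is 15 nt longer than skipping, had 81 and 61 reads. Its donor lay 7 bases past, and its acceptor 8 bases before, the annotated ends of the flanking exons. Adgrl2 also had a single junction with a longer product. Its 12-nt exon, which Ensembl 65 lacks and GENCODE M21 holds, had 1 and 1 reads in, 16 and 24 out, and 3 and 8 skipping it, and a junction whose product is 12 nt longer had 20 and 24 reads. In Adgrl1 no read took such a junction from the 110-nt coding exon before it, and 18 and 10 took one from a 150-nt alternative exon. The junctions with a longer product were looked up by the length of the short exon, so that match in length is not a result. Whether these reads carry the sequence of the short exon was not tested. The inclusion of this exon in Adgrl2 and Adgrl3 is therefore not given as a result.

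**Figure D3:**
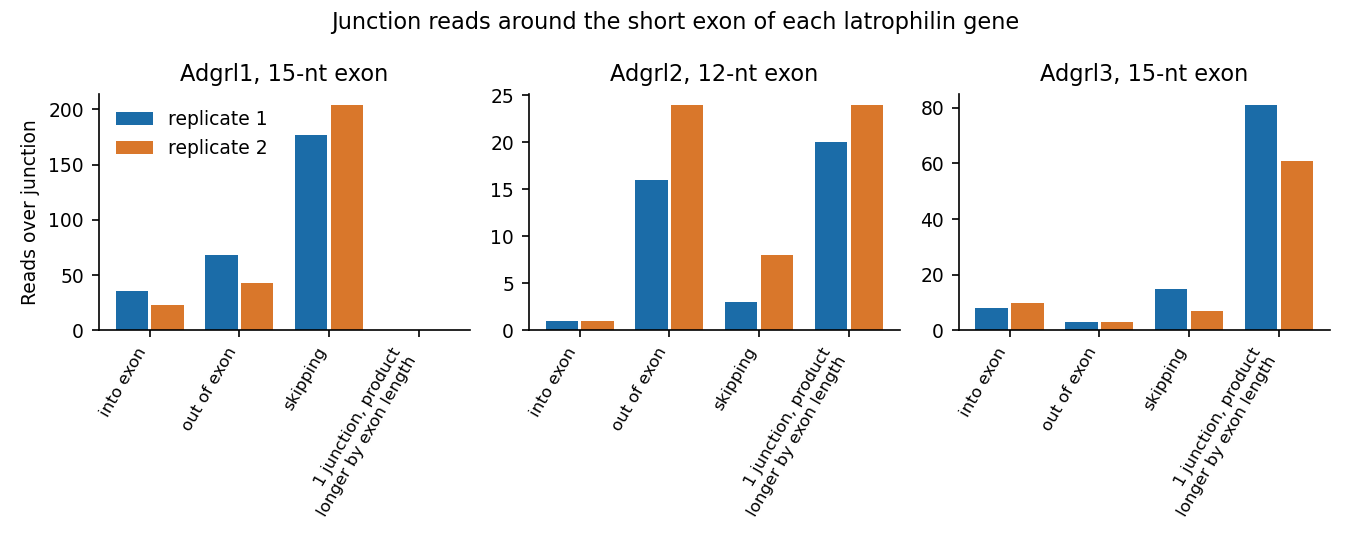
Reads over mm9 junctions around the short exon of each latrophilin gene, in replicates 1 (blue) and 2 (orange). Bars give reads into the exon, out of it, skipping it, and over 1 junction whose product is longer than skipping by the exon's length. Skipping is the tallest class in Adgrl1 (177 and 204 reads) and the single longer junction in Adgrl3 (81 and 61).

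Further reads reached the 801-nt exon of Adgrl1 from unannotated donors. Of 535 and 500 reads that entered this exon, 204 and 188 (38.1% and 37.6%, Wilson intervals 34.1 to 42.3 and 33.5 to 41.9) crossed an intron of 1081 bases whose donor is no annotated exon end. The skipping junction held 33.1% and 40.8% and the 15-nt exon 12.7% and 8.60%. All unannotated donors together held 54.0% and 50.6%. GENCODE M21 lists no intron of 1081 bases in Adgrl1. Percent spliced in above counts annotated exon ends alone, so these reads are not in it.

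Latrophilins also share a 39-nt coding exon, at mm10 chr8:83932372-83932410 in Adgrl1, chr3:148849766-148849804 in Adgrl2 and chr5:81663386-81663424 in Adgrl3, again with capitals where the 3 genes do not share a base.
Adgrl1: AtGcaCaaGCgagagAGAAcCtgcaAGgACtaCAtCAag
Adgrl2: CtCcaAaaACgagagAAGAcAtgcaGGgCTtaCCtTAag
Adgrl3: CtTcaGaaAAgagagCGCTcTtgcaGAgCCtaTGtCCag
They shared 21 of 39 positions. In Adgrl1 no read skipped the exon, against 614.5 and 593 inclusion reads, and inclusion was 100% (99.4 to 100) in both replicates. In Adgrl2 it was included at 89.8% (83.3 to 93.9) and 92.8% (87.6 to 96.0), and in Adgrl3 at 84.6% (77.6 to 89.7) and 86.3% (79.2 to 91.3). The Adgrl1 intervals were above those of the other two genes in both replicates, while those of Adgrl2 and Adgrl3 overlapped.

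A 27-nt exon, at mm10 chr3:148827212-148827238 in Adgrl2 and chr5:81757986-81758012 in Adgrl3, was the next such pair, and capitals mark where the sequences differ.
Adgrl2: ctatgaAgataaTaAGccAttTatcaa
Adgrl3: ctatgaGgataaCaGAccCttCatcaa
The 2 exons were identical at 21 of 27 positions. Inclusion was 15.3% (10.5 to 21.6) and 18.8% (13.8 to 25.1) in Adgrl2, and 38.9% (30.5 to 48.2) and 32.2% (23.3 to 42.6) in Adgrl3. The intervals were apart in replicate 1 and overlapped in replicate 2.

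Over all 10 genes, 210 exons are internal in at least 1 Ensembl 65 transcript, and 143 had 20 reads or more in both replicates. Of these, 15 (10.5%) were alternative, meaning 5 to 95 percent spliced in in both replicates, against 5.3% of 119768 internal exons of all genes. The alternative exons were in Adgrl3 (6), Adgrl2 (5), Adgrl1 (2) and Tenm4 (2). Their median length was 39 nt, against 184 nt for the other 128, and 13 of 15 had a length that is a multiple of 3, against 53 of 128. Of 9 exons of at most 30 nt with enough reads, 6 were alternative, against 21.8% of such short exons in all genes. Tenm2, Tenm3 and Tenm4 had 20 reads or more in both replicates at 12 of 32, 5 of 28 and 12 of 34 internal exons. Alternative exons in these genes could thus go unseen at this depth. In Tenm1 all 34 internal exons had enough reads and none was alternative by this rule, which does not call alternative exon ends. The 34 include overlapping forms of an exon. The 147-nt form of an exon was entered by 15 and 8 reads and its 150-nt form by 128 and 86. A 305-nt form of another exon scored 100% with 0 entering reads in either replicate.

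The remaining alternative exons lay in the latrophilins. Adgrl2 had a 129-nt exon near its 3′ end, where the cytoplasmic tail is encoded, at 74.8% (68.7 to 80.03) and 74.4% (68.7 to 79.5), an 18-nt exon at 28.0% and 26.4%, and a 45-nt exon at 43.6% and 46.1%. Not counted were 43 and 62 reads that entered the 129-nt exon from an unannotated donor 33 bases before the annotated one. Also left out were 20 and 34 reads from an unannotated donor 34 bases past the end of the 18-nt exon. Adgrl3 had a 204-nt exon at 66.9% and 60.8% and a 31-nt exon outside the annotated coding sequence at 70.6% and 83.9%. Its 18-nt and 52-nt exons begin at the same base, and all 62 and 56 entering reads were counted for both. They scored 20.8% and 21.02%, and 27.9% and 32.2%, values that cannot be added. Only 20 and 18 reads left the end of the 18-nt exon, so its score rests mostly on shared entering reads. The end of the 52-nt exon had 59 and 76 leaving reads, and 156 and 139 reads skipped both exons. In Adgrl1 the 150-nt exon, which no matched transcript codes through, was included at 6.58% and 6.97%. It had 26 and 33 reads entering but only 4 and 1 leaving its annotated end. The 18 and 10 reads from an unannotated donor 7 bases past that end were not counted. The replicates lay at most 13.3 percentage points apart at any of the 15 exons, and their intervals overlapped at each of them.

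**Figure D4:**
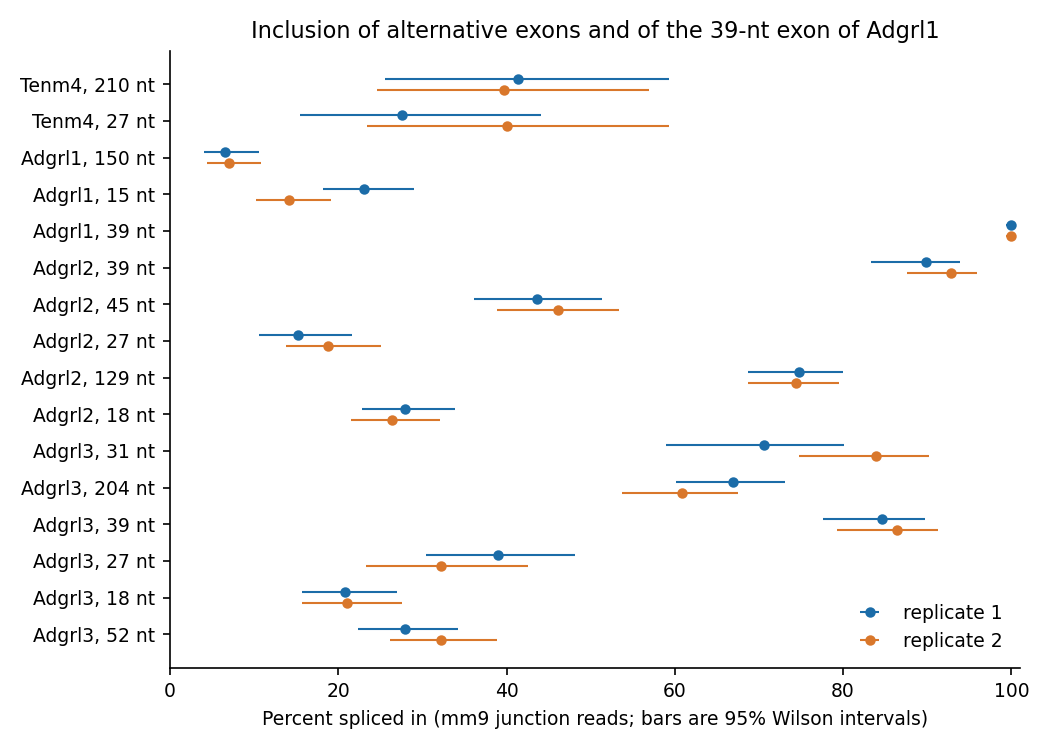
Percent spliced in of the 15 alternative exons and of the 39-nt exon of Adgrl1, in 5′ to 3′ order within each gene, for mm9 replicates 1 (blue) and 2 (orange), with bars for 95% Wilson intervals. The 39-nt exon is at 100% in Adgrl1 and between 84.6% and 92.8% in Adgrl2 and Adgrl3.

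Reads per junction gave a view of level that does not rest on transcript lengths. The median over the junctions of the transcript with most fragments was 757 and 724 reads in Adgrl1, 156.5 and 126.5 in Adgrl3, and 93.0 and 102.5 in Adgrl2. Tenm1 had 65 and 48, so on this measure it lay below Adgrl2, while in TPM it was 2.13 times as high. Tenm2, Tenm4 and Tenm3 followed with 19.5 and 21.5, 14.0 and 18.5, and 11.0 and 17.0. The profile along that transcript also differed. With the junctions of a transcript cut into 3 equal parts, the median of the last part in Tenm2 was 2.68 and 2.31 times that of the first, in Tenm3 4.67 and 3.67 times, and in Tenm4 3.47 and 2.94 times. The Tenm3 transcript leaves out upstream annotated introns of 28002, 21333 and 137907 bases that had reads, so its first part is not the start of the gene. In Tenm1 it was 0.705 and 0.424 times. Adgrl1 had ratios of 1.44 and 1.36, Adgrl2 1.22 and 0.952, and Adgrl3 1.06 and 0.762. Adgrl3 had as few as 3 reads at the junctions beside its 15-nt exon. In Adgrl2 the 1 junction without reads was its annotated intron of 6054 bases at that place, where the 20 and 24 reads of the longer product lay on an intron of the same length at a slightly shifted position. In Tenm4 an intron of 1497 bases had 57 and 41 reads 2 bases away from its annotated position.

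**Figure D5:**
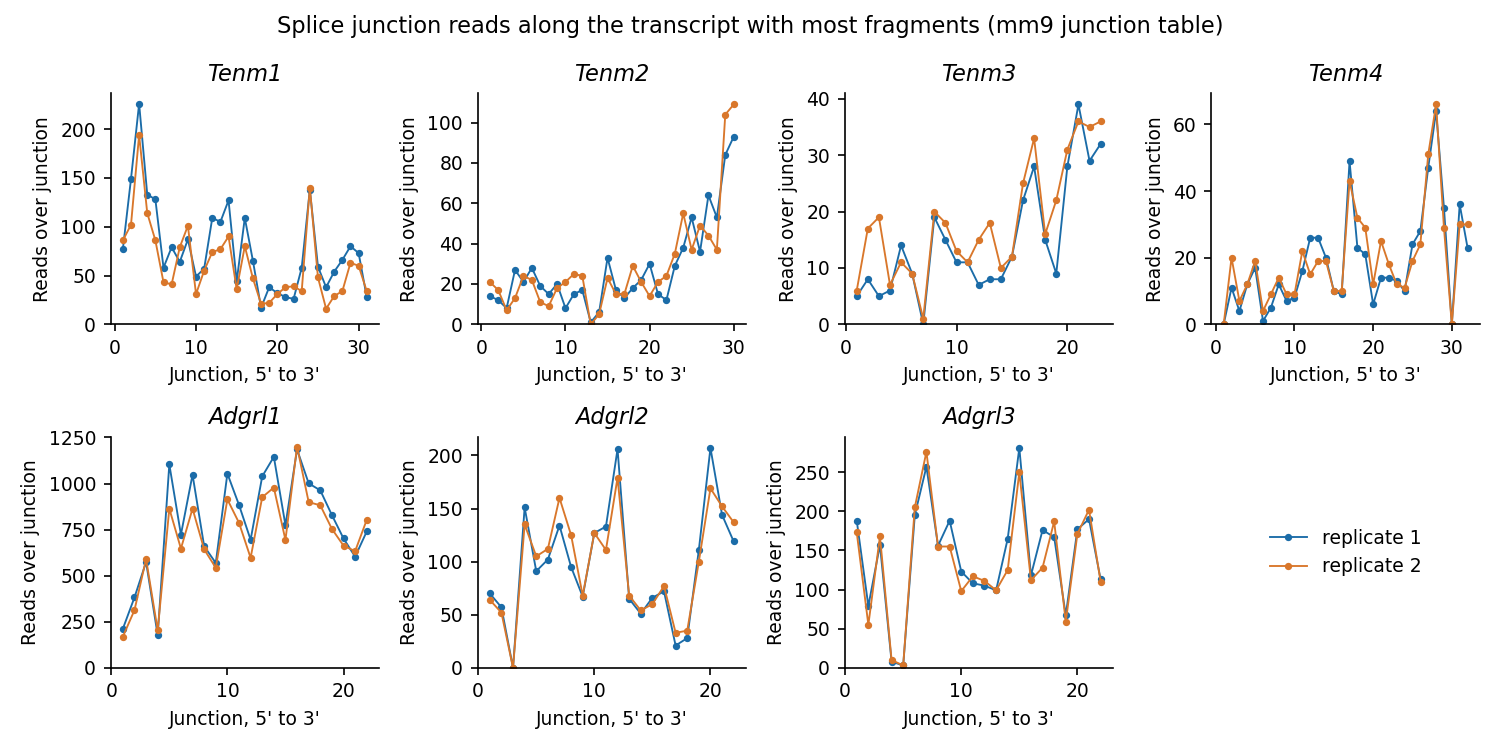
Reads over each splice junction, numbered 5′ to 3′ along the transcript with most fragments, in mm9 replicates 1 (blue) and 2 (orange), for the 7 genes with many exons. Reads rise towards the 3′ end in Tenm2, Tenm3 and Tenm4, and in Tenm1 junction 3 is the highest, with 226 and 194 reads.

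Of the other binding partners, UNC5 receptors bind FLRT proteins, and Unc5b was at 28.2 ± 0.361 TPM, Unc5a at 25.4 ± 2.11, Unc5c at 11.8 ± 1.61 and Unc5d at 2.55 ± 0.255. Of the neurexins, presynaptic proteins that bind latrophilins, Nrxn2 stood at 289 ± 45.8 TPM and Nrxn3 at 67.1 ± 4.05. Of 25 partner and relative genes listed, 24 reached 1 TPM in both libraries. Outside the UNC5 and neurexin families, the highest were Gnas, the stimulatory G protein subunit, at 1830 ± 31.5 TPM, Adgrb1 at 135 ± 8.64 and Adgrb2 at 79.2 ± 8.10, both adhesion receptors. The lowest outside these families were the netrin receptor Dcc at 0.755 TPM (0.67 and 0.84 in the libraries), the Slit receptor Robo1 at 5.94 ± 0.523 and the endothelial relative Adgrl4 at 11.1 ± 1.58.

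The libraries were compared on counts scaled by trimmed means, and sex cannot be told apart from replicate in any of these ratios. On this scale none of the 10 genes was 2-fold apart, where 0.637% of 15543 genes with at least 100 counts were (0.431% higher in replicate 1 and 0.206% in replicate 2). None had one library at least 25% above the other, where 10.6% were (4.98% higher in replicate 1 and 5.66% in replicate 2). By TPM as deposited, Tenm1 was that far apart, with a log2 ratio of 0.33. On that scale 13.1% of 15534 genes were, 1339 of them higher in replicate 1 and 690 in replicate 2. The widest ratios of replicate 1 over replicate 2 on the log2 scale, again on scaled counts, were -0.21 for Flrt2, 0.18 for Flrt1 and 0.17 for Tenm1. The smallest was -0.03 for Adgrl3. Tenm1, Adgrl1, Flrt1 and Flrt3 were higher in replicate 1 and the other 6 in replicate 2. The median size of the ratio was 0.12 over the 10 genes and 0.09 over all genes tested. Tenm1 and Tenm3 had ratios of like size and opposite sign, 0.17 and -0.17. Of the 25 partner genes, 1 was that far apart: Dcc, higher in replicate 2 by a log2 ratio of -0.39.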

How the data were processed

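The 2 cerebellum libraries of one group were measured by strand-specific paired-end RNA sequencing with reads of 101 bases. Per the file headers, the authors deposited an expected count (estimated fragments), TPM, FPKM and a percent of the gene's TPM for each gene or transcript of GENCODE M4 on mm10. The deposited credibility bounds of TPM, treated as a score, were not used for any call. TPM includes spike-ins in its denominator. For mm9 the deposited files give RPKM per Ensembl 65 gene, transcript and exon, junction read counts per replicate, and, as a fraction, an irreproducibility value (the aligner is not given in the sources used here). All 340 exon RPKM values equalled the sum of the transcript values that hold the exon, within 1%, so they were not used as coverage. Expected counts were rounded and scaled by TMM in edgeR 4.0.16 with a prior count of 2; the script was tested on simulated data. Junctions were tabulated in Python 3.11.15. Exons of mm9 and mm10 were matched by transcript identifier and exon and intron lengths, in 205 of 210 cases, never by coordinate. Sequences came from GENCODE M21. Named genes are the 10 genes, the UNC5 and neurexin genes, the 3 highest and lowest other partners, the host genes, cell type markers and a sex check; a few of these are not reported here. Genes, lists and tests were chosen with earlier results of these data known. Alternatives changed the unit, scaling, thresholds and libraries.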

Additional observations from a re-analysis of the deposited data

How the results depend on the processing

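No paired analysis was possible because the 2 libraries form a single group. The number of genes detected stayed at 10 by FPKM, by posterior mean TPM and in either library alone. It was 7 at 5 TPM, 4 at 10 TPM and 5 by mm9 gene RPKM. In the median gene, mm10 FPKM was 5.55 times this mm9 RPKM. Counting genes at the same place in the order, FPKM, posterior mean TPM and replicate 2 alone kept 10, replicate 1 alone 8 (so 8 to 10 with a library left out), and TPM without non-coding transcripts 8. By mm9 RPKM it was 5, and by junction reads 5; these last settings, except RPKM, were chosen after seeing the data. No gene had one library at least 25% above the other with DESeq2 size factors, total gene counts, a prior count of 0.5, no count minimum or TPM + 1. By TPM as deposited, a setting added later, 1 gene did, Tenm1. Of 60 single ratios, 55 moved by under 0.1 on the log2 scale; Tenm1 reached 0.32 by TPM + 1 and 0.33 by TPM as deposited. A second transcript passed in 7 genes at 10% and in 1 at 30%. Alternative exons numbered 13 at 50 reads, 13 between 10 and 90 percent, 15 with the irreproducibility filter, and 18 to 19 with a replicate left out. By exon RPKM, the last coding exon was at least 1.5 times the first in 1 gene, Tenm1; by the medians of the last and first of 3 parts this count was 0 over exons and 3 over junctions, Tenm2 to Tenm4, a setting added later; the exon values only repeat transcript estimates. The same leading transcript was seen in 10 genes (Flrt1, with 1 transcript, included; 9 in the main count) by posterior mean TPM and by expected counts. Low junction reads limit the exons of Tenm2, Tenm3 and Tenm4, and 2 libraries give no test.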
